A study of Mus musculus with 6 samples.

Results

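The 10 genes described here encode enzymes that remove superoxide and peroxides and were chosen by name from the 41710 genes of each library: *Sod1* and *Sod2* for superoxide dismutases, *Cat* for catalase, *Gpx1*, *Gpx3* and *Gpx4* for glutathione peroxidases, *Prdx1*, *Prdx2* and *Prdx5* for peroxiredoxins and *Txn1* for thioredoxin. All 10 were found in the files.

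Superoxide and hydrogen peroxide are by-products of mitochondrial respiration and of protein folding in the endoplasmic reticulum, and cells remove them with a relay of enzymes. Superoxide dismutases turn superoxide into hydrogen peroxide, which catalase splits into water and oxygen and which glutathione peroxidases and peroxiredoxins reduce to water with electrons from glutathione or thioredoxin. Pancreatic β cells are known for low levels of several peroxide-removing enzymes, catalase and glutathione peroxidase 1 among them.

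Islet RNA of 3 WT and 3 *Trpm7R/R* mice was sequenced, 1 library per sample. *Trpm7R/R* mice are homozygous for a point mutation that inactivates the kinase domain of TRPM7, an ion channel fused to a kinase, and they carry it in all cells of the islet and of the body. Both groups had received an obesogenic diet (HFD) with 45% of its calories from fat for 16 weeks, starting at 8 weeks of age, and isolated islets of both were kept in culture medium before lysis and low-input library preparation. None of the sources gives the sex of the sequenced mice. Values are given in the order of WT replicates 1, 2 and 3 and *Trpm7R/R* replicates 4, 6 and 8.

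The libraries held between 17213285 and 20307909 mapped reads, of which between 1312128 and 2135466 lay in exons, and between 50.6 and 69.3% of the exon reads fell in 11 predicted genes with dense reads. The median density of intron reads, taken over 5181 autosomal genes with at least 50000 bases of intron, was between 3.75 and 4.91 reads per kilobase and serves as a background for each library. Reads across exon-exon junctions outside those predicted genes and the mitochondrial chromosome, called spliced reads from here on, came to 1577, 1942 and 917 reads per 1000000 mapped in WT and 514, 348 and 511 in *Trpm7R/R*. The groups did not overlap (1479 ± 519 in WT, 458 ± 95.2 in *Trpm7R/R*, SD, n = 3 each; 2-sided exact permutation test, p = 0.1, the smallest that 3 against 3 can give). Endocrine marker genes held 51.7, 39.5 and 34.9% of the spliced reads in WT and 20.9, 19.5 and 33.5% in *Trpm7R/R*, and fewer endocrine cells and less RNA per endocrine cell cannot be told apart in such libraries. Of the 10 erythroid markers, which matter here because red blood cells are rich in *Prdx2* and *Cat* products, 8 had no exon-exon read in any library. In *Trpm7R/R* replicates 6 and 8, the intron density of X-linked genes was 1.76 and 1.64 times the background and that of Y-linked genes was 0, whereas the other 4 libraries had 0.652 to 0.925 times for X and 0.215 to 0.529 times for Y, so genotype and sex cannot be fully told apart. The exon reads of *Trpm7* itself had a log2 fold change of -0.08 (SE 0.38), which does not check a point mutation.

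Per length, *Gpx3* had the highest mean level of the 10 genes in WT islets and *Cat* the lowest. In WT replicate 3, however, *Gpx3* lay below *Sod1*, *Txn1* and *Prdx1*. The authors' RPKM values (exon reads divided by exon length and by the mapped reads of the library) in WT were 1.60 ± 1.13 (SD, n = 3) for *Gpx3*, the gene of a secreted glutathione peroxidase, and 0.957 ± 0.450 (SD, n = 3) for *Txn1*, the gene of cytosolic thioredoxin. *Prdx1*, *Gpx4* and *Sod1* followed with mean RPKM of 0.754, 0.691 and 0.682, and neighbours among these 5 genes differed by less than the larger of their SDs. *Sod2* came next at 0.382 ± 0.050 (SD, n = 3), then *Prdx2* at 0.308 ± 0.045 (SD, n = 3), *Gpx1* at 0.275 ± 0.017 (SD, n = 3), *Prdx5* at 0.151 ± 0.023 (SD, n = 3) and *Cat* at 0.042 ± 0.037 (SD, n = 3). Of these neighbours only *Prdx2* and *Gpx1* differed by less than the larger SD. In *Trpm7R/R* islets the 10 RPKM means lay between 0.069 for *Prdx5* and 0.373 for *Sod2*, and *Gpx3* lay at 0.345.

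These levels were low in absolute terms. Exon density in WT was 6.66 times the intronic background for *Gpx3*, 3.98 times for *Txn1*, 3.14 times for *Prdx1*, 2.88 times for *Gpx4* and 2.86 times for *Sod1*, while *Sod2*, *Prdx2* and *Gpx1* lay between 1.15 and 1.60 times it and *Prdx5* and *Cat* at 0.633 and 0.175 times it. In *Trpm7R/R* no gene had a mean above 1.58 times the background. At or near the background, an exon read cannot be told apart from a read of unspliced RNA or DNA, so exon-exon reads were read beside exon reads throughout.

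**Figure D1:**
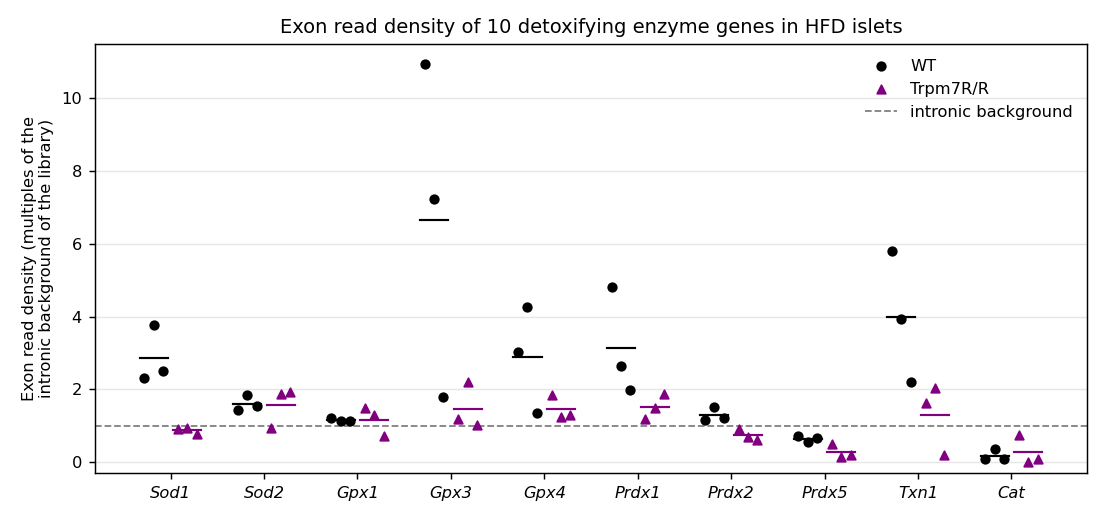
Exon read density of the 10 genes, as multiples of the intronic background of the same library (dashed line at 1), with 1 point per library and bars for group means (WT black circles, Trpm7R/R purple triangles). WT means reach 6.66 for Gpx3 and stay at or below 1.60 for Sod2, Gpx1, Prdx2, Prdx5 and Cat, and all Trpm7R/R means lie at 1.58 or below.

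Of the genes with a WT exon density above the background, the 4 with the lowest *Trpm7R/R* to WT ratios of exon reads per mapped read (0.211 for *Gpx3*, 0.306 for *Txn1*, 0.309 for *Sod1* and 0.488 for *Prdx1*) are shown with their promoters. They were chosen by these ratios alone: none of the 4 was called in edgeR's test of exon reads, which *Txn1* was too low to enter. The sequences, from RefSeq on GRCm38.p6, run from 250 bases before to 50 bases after the annotated start, and capitals mark matches to TGACNNNGC on either strand, the core of the antioxidant response element through which the transcription factor NRF2 acts.
Sod1 (chr16:90220512-90220811, + strand): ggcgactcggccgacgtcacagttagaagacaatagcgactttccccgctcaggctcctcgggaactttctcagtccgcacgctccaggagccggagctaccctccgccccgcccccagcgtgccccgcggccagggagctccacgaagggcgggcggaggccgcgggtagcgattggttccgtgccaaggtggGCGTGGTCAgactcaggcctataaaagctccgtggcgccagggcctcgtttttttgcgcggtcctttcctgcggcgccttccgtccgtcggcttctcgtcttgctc
Prdx1 (chr4:116685349-116685648, + strand): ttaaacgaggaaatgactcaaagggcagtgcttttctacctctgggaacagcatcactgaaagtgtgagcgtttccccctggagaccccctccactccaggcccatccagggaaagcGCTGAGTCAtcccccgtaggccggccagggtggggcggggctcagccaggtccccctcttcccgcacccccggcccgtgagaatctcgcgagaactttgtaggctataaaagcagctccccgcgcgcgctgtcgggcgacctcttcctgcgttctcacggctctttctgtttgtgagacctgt
Gpx3 (chr11:54902604-54902903, + strand): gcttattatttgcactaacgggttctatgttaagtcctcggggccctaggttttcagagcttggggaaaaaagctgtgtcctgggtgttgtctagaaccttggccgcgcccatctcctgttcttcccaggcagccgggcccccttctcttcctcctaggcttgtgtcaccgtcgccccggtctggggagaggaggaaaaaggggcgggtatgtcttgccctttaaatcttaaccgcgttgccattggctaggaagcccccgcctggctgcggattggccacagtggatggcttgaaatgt
Txn1 (chr4:57956362-57956661, - strand): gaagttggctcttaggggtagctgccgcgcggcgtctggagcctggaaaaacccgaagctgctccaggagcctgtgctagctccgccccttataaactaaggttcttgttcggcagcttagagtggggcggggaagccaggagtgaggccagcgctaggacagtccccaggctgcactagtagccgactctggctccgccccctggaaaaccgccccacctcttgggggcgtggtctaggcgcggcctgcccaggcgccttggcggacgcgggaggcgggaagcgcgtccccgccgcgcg

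The element core occurred in *Prdx1*, as GCTGAGTCA beginning 133 bases before the start, and in *Sod1*, as GCGTGGTCA beginning 56 bases before it. Of the 10 genes, with 13 listed promoters, 2 had such a match, against 14.0% of 27025 mouse genes and 12.4% of their 32851 promoters of this length. The GC box GGGCGG occurred in at least 1 promoter of all 10 genes and of 38.2% of all genes, and TATAAA in 3 of the 10 and in 15.7% of all. Each motif was searched on both strands and on its own, so matches could overlap. A match describes letters and not a site in use.

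Of the superoxide dismutases, *Sod1*, the gene of the cytosolic copper-zinc enzyme, had 42, 65 and 43 exon reads in WT and 17, 14 and 15 in *Trpm7R/R*. All WT libraries lay above all *Trpm7R/R* libraries, with no overlap. Scaled by TMM and compared with edgeR's quasi-likelihood test over the 11674 genes that passed its filter on low counts, *Sod1* had a log2 fold change of -1.65 (SE 0.36, edgeR adjusted p = 0.0978), a 3.13-fold lower level that did not pass an adjusted p of 0.05. DESeq2's Wald test, on the same counts, gave -1.64 with an adjusted p of 0.0355, and the call was also made without *Trpm7R/R* replicate 4 (edgeR adjusted p = 0.0313). These settings called more genes in general, 0.831 and 1.19% of all genes lower against 0.0257% in the fit of all 6 libraries.

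*Sod1* had the most exon-exon reads of the 10 genes: 19, 33 and 18 in WT against 7, 7 and 4 in *Trpm7R/R*, again with no overlap. These 88 reads were 44.9% of its exon reads (Wilson 95% interval 38.1 to 51.9%, counting error only). Per 10000 spliced reads of the same library, however, they came to 6.40, 9.33 and 10.6 in WT and 7.91, 11.4 and 3.85 in *Trpm7R/R*, ranges that overlap. In edgeR's test of exon-exon reads, scaled by TMM within these reads over 347 genes, *Sod1* had a log2 fold change of -0.39 (SE 0.50, edgeR adjusted p = 0.784), against a median of -0.14 over all genes tested. Of these 347 genes, 0.288% were called lower and 3.17% higher, and *Sod1*, the only member among them, was not called. With all 9168 genes of at least 1 exon-exon read in the fit, *Sod1* was at -1.14 (SE 0.55, edgeR adjusted p = 0.622), 2.20-fold lower, and the median gene at -0.46. In that fit 2 of the 9 members with such reads, *Sod1* and *Txn1*, were lower at an unadjusted p under 0.05, beside 2.76% of genes. The same reads scaled to mapped reads gave -1.91 (SE 0.67, edgeR adjusted p = 0.0130), a scale on which the median gene stood at -1.69 and 61.7% of genes were called lower. The lower *Sod1* reads thus passed the test relative to mapped reads and not relative to other spliced transcripts.

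*Sod1* lies at chr16:90220754-90226329 on GRCm38 and overlaps *Scaf4* on the opposite strand, and the counting is not stated to use strand, so reads of the overlap cannot be told apart. A single merged exon of 3672 bases makes up 92.5% of its annotated exon length, which takes in introns kept in one transcript model. Introns outside this model had 8, 8 and 17 reads in WT and 10, 17 and 10 in *Trpm7R/R*, with overlapping ranges and a log2 fold change of 0.18 (SE 0.52).

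*Sod2*, the gene of the mitochondrial manganese enzyme, had similar exon reads in both groups. There were 65, 80 and 67 exon reads in WT and 44, 70 and 95 in *Trpm7R/R*, so that the *Trpm7R/R* libraries spanned the WT range on both sides. Of these reads, 48, 64 and 59 in WT and 35, 60 and 82 in *Trpm7R/R* mapped uniquely. The log2 fold change was 0.03 (SE 0.33, edgeR adjusted p = 1.00), and the ratio of reads per mapped read was 0.992 with a 95% interval of 0.816 to 1.21 for counting error only. Only 2 of its 421 exon reads crossed a junction (0.475%, Wilson 95% interval 0.130 to 1.72%), and its exon density over background of 1.59 was close to that of its own introns, 1.72. Its reads therefore stood near the level of its introns.

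Among the glutathione peroxidases, *Gpx3* had the widest spread. Its exon reads were 91, 57 and 14 in WT and 10, 15 and 9 in *Trpm7R/R*. WT replicates 1 and 2 stood far above all other libraries, whereas WT replicate 3 fell within the *Trpm7R/R* range. The log2 fold change was -2.17 (SE 0.57, edgeR adjusted p = 0.179). Without WT replicate 3 it was -2.60 with an edgeR adjusted p of 0.0392 (0.242% of all genes called lower), and with all genes of at least 1 count in the fit (31854 genes) it was -2.10 with an adjusted p of 0.00595, so that whether *Gpx3* was called depended on these choices, as it did with DESeq2's Wald test (adjusted p = 0.0388). None of its 196 exon reads crossed an exon-exon junction, which allows a share of up to 1.53% by a limit of 3 reads and up to 1.92% by the Wilson 95% interval, although the annotation gives it 7 separate merged exons. In *Sod1*, with an equal number of exon reads, 88 did. Its introns held 1 to 10 reads per library, 0.0357 to 0.377 times the background, so that reads of *Gpx3* lay in exons but not across their junctions. Relative to spliced reads, its exon reads were 30.6, 16.1 and 8.27 per 10000 in WT and 11.3, 24.5 and 8.67 in *Trpm7R/R*, and these ranges overlap.

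*Gpx4*, the gene of the selenoenzyme that reduces lipid peroxides in membranes, had 24, 32 and 10 exon reads in WT and 15, 8 and 11 in *Trpm7R/R*, with WT replicate 3 inside the *Trpm7R/R* range (log2 fold change -0.91, SE 0.48, edgeR adjusted p = 1.00). Its exon-exon reads, 10, 4 and 3 in WT and 3, 1 and 7 in *Trpm7R/R*, overlapped too. Set against spliced reads, the pooled ratio of *Trpm7R/R* to WT was 2.09 with a 95% interval of 0.886 to 4.74 (counting error only), in the opposite direction to the exon reads and not apart from 1. The exon reads of *Gpx4* set against spliced reads were also higher in *Trpm7R/R*, at 10.6 to 16.9 per 10000 against 5.91 to 9.04 in WT, with no overlap. Spliced reads were fewer in *Trpm7R/R*, and *Sod2* and *Gpx1*, whose exon density was near the background, lay higher on this scale too. The share of all genes that did so was not computed. *Gpx1*, the gene of the ubiquitous cytosolic enzyme, had 8, 7 and 7 exon reads in WT and 10, 7 and 5 in *Trpm7R/R*. These are the counts that the background alone would give over its 1441 bases of exon, with densities of 0.707 to 1.47 times the background, and 1 read crossed a junction. *Gpx1* was too low for the filter, and any difference in it was not detectable at this depth.

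None of the peroxiredoxins, which reduce peroxide with a reactive cysteine, passed the test over all genes. *Prdx1*, the gene of a cytosolic 2-cysteine peroxiredoxin, had 67, 35 and 26 exon reads in WT and 17, 17 and 28 in *Trpm7R/R*. WT replicate 1 stood well above the others, and WT replicate 3 and *Trpm7R/R* replicate 8 were nearly level. The log2 fold change was -1.01 (SE 0.42, edgeR adjusted p = 0.698), and -0.46 without WT replicate 1. Exon-exon reads of *Prdx1* were 9, 8 and 1 in WT and 1 in each *Trpm7R/R* library, so WT replicate 3 was level with *Trpm7R/R*. Per spliced read the pooled ratio was 0.539 (95% interval 0.102 to 1.85, counting error only).

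*Prdx2*, which encodes a related cytosolic enzyme abundant in red blood cells, had 16, 20 and 16 exon reads in WT and 13, 8 and 9 in *Trpm7R/R*, with no overlap (log2 fold change -0.74, SE 0.43, edgeR adjusted p = 1.00). It overlaps *Rnaseh2a* and *Junb* on the opposite strand, as *Prdx5* overlaps *Trmt112*, so reads of both peroxiredoxins are uncertain there. The density of *Prdx2* was between 0.601 and 1.51 times the background, and 4, 4 and 3 of its reads in WT and 0, 1 and 2 in *Trpm7R/R* crossed a junction. *Prdx5*, whose product works in mitochondria and peroxisomes, had 7, 5 and 6 exon reads in WT and 5, 1 and 2 in *Trpm7R/R*, below the background density in all 6 libraries. It did not pass the filter.

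*Txn1* encodes the thioredoxin that recycles peroxiredoxins. Its exon reads were 28, 18 and 10 in WT and 8, 8 and 1 in *Trpm7R/R*, with no overlap in raw reads. It missed the filter with all 6 libraries. When all genes of at least 1 count were fitted, its log2 fold change was -1.57 (SE 0.55, edgeR adjusted p = 0.335), and its normalized counts overlapped, at 9.38 in WT replicate 3 and 10.1 in *Trpm7R/R* replicate 6. It also passed the filter without WT replicate 3 (-1.91) and without *Trpm7R/R* replicate 4 (-1.91), 6 (-2.04) or 8 (-1.04), with edgeR adjusted p between 0.220 and 0.999, and it was not called in any of these fits. With reads of its introns counted too it was at -0.32 (SE 0.24). Of its exon-exon reads, 9, 10 and 2 came from WT and 0, 2 and 0 from *Trpm7R/R*. Relative to spliced reads the pooled ratio of the latter was 0.308 (95% interval 0.0353 to 1.26, counting error only), the lowest of the 6 genes for which a ratio could be formed, with an interval that includes 1. *Cat*, the gene of the peroxisomal enzyme that splits hydrogen peroxide, had 1, 4 and 1 exon reads in WT and 9, 0 and 1 in *Trpm7R/R*. Its 9 reads in *Trpm7R/R* replicate 4 were still below the background of that library, at 0.731 times its density. Introns of *Cat* held 45, 65 and 68 reads in WT and 57, 43 and 47 in *Trpm7R/R*, and 1 read in all crossed a junction, so no spliced *Cat* transcript was measurable in either genotype.

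**Figure D2:**
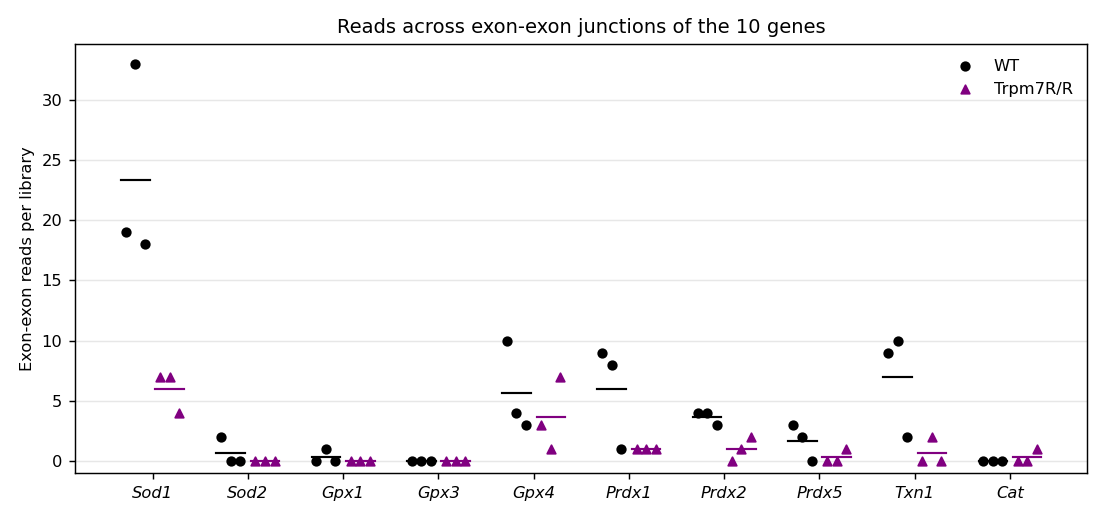
Exon-exon reads of the 10 genes, as reads per library, with 1 point per library and bars for group means (WT black circles, Trpm7R/R purple triangles). Sod1 has 18 to 33 reads in the WT libraries and 4 to 7 in the others, no other gene exceeds 10, and Gpx3 has 0 in each library.

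Across the 10 genes, 6 passed the filter of the exon fit and 0 were called lower or higher by edgeR's quasi-likelihood test (adjusted p of at most 0.05 and at least 2-fold), against 0.0257% of all 11674 genes called lower and 0% called higher. At an unadjusted p under 0.05, 3 were lower (*Sod1*, *Gpx3* and *Prdx1*) and 0 higher, where 4.57% of all genes were lower and 1.14% higher. DESeq2's Wald test called 2 lower, *Sod1* and *Gpx3*, and 0.831% of all genes. The groups did not overlap, with all *Trpm7R/R* values lower, in normalized counts of 2 of the 6 (*Sod1* and *Prdx2*), against 6.84% of genes. Scaled to spliced reads, which were themselves fewer in *Trpm7R/R*, exon reads of 0 of the 10 lay below WT without overlap and those of 3 lay above it (*Sod2*, *Gpx1* and *Gpx4*). On this scale any gene with equal exon reads in both groups stands higher in *Trpm7R/R*. The share of all genes was not computed on it, so these counts do not set the members apart. The median log2 fold change of the 6 was -0.96 and that of all genes 0.01. TMM sets the bulk of the genes tested near 0, although spliced reads per mapped read were fewer in *Trpm7R/R*. The 2 medians therefore do not show whether the members differ from other spliced transcripts. With all genes of at least 1 count, 1 of the 10 was called lower (*Gpx3*; 0.411% of 31854 genes) and 4 had an unadjusted p under 0.05 and a lower level (3.55% of genes), with a median of -0.88. Without *Trpm7R/R* replicates 6 and 8, the libraries that stood apart in X- and Y-linked reads, 3 of the 8 members tested were lower by the unadjusted p, beside 9.25% of all genes, and the log2 fold changes were -1.59 for *Sod1*, -2.46 for *Gpx3*, -1.36 for *Prdx1* and -0.73 for *Sod2*, with the lone remaining library assumed to vary like the WT ones.

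Scaled to 81 ribosomal protein genes, the median gene moved from a log2 fold change of 0.01 to 1.34, with 62% of genes called higher, and the members moved with it. On that scale *Sod1* was at -0.26 and *Gpx3* at -0.75, *Prdx1*, *Gpx4* and *Prdx2* were at 0.32, 0.53 and 0.60, and *Sod2* was at 1.40 (edgeR adjusted p = 0.0215), close to the shift of the median gene. Relative to the median gene on that scale, *Sod1* was at -1.60, *Gpx3* at -2.09, *Prdx1* at -1.01, *Gpx4* at -0.80, *Prdx2* at -0.73 and *Sod2* at 0.06. A change of scaling moves all genes by nearly the same amount. That these values are close to those with TMM was thus fixed in advance and is no check of the scaling. With ribosomal protein gene scaling none of the 6 was lower at an unadjusted p under 0.05. Intron reads of the 6 members that could be tested for them had log2 fold changes between -0.30 and 0.19, and 0 of them were lower at an unadjusted p under 0.05 by edgeR's test, against 0.989% of 20921 genes.

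**Figure D3:**
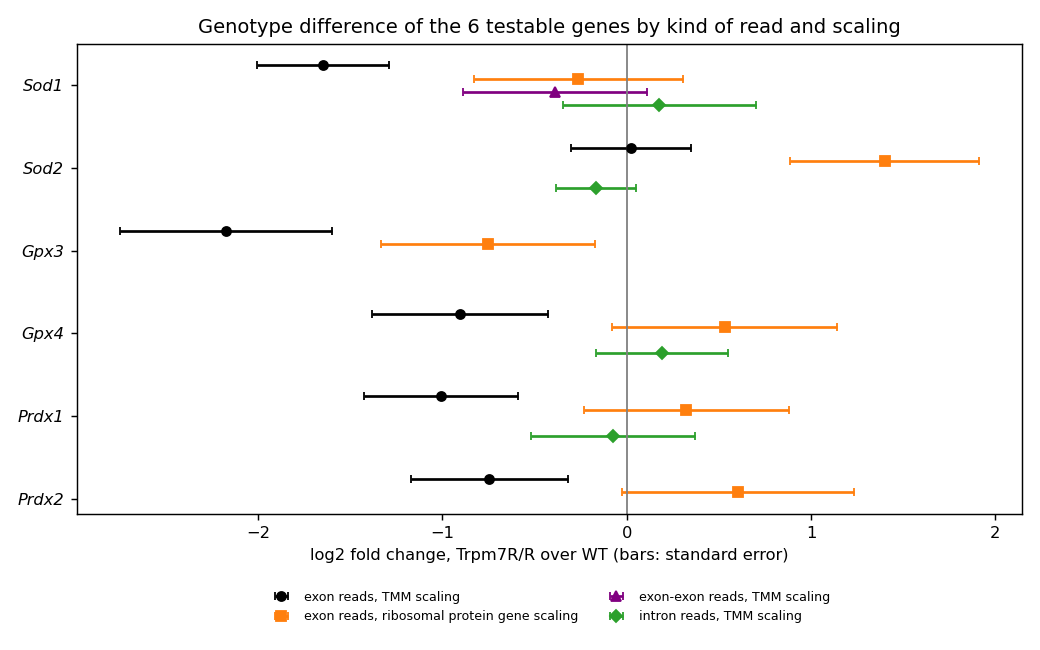
Log2 fold changes, Trpm7R/R over WT, of the 6 genes tested in exon reads, by kind of read and scaling, with bars for standard errors. Exon reads scaled by TMM (black) lie at -0.74 to -2.17 except for Sod2 at 0.03, ribosomal protein gene scaling (orange) moves each of them to the right, and exon-exon reads of Sod1 (purple) lie at -0.39.

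The exon-exon reads of the 10 genes together numbered 56, 62 and 27 in WT and 11, 12 and 16 in *Trpm7R/R*. In reads per 1000000 mapped they came to 2.97, 3.40 and 1.46 in WT and to 0.639, 0.681 and 0.788 in *Trpm7R/R*, a difference of 3.72-fold between the group means with no overlap (2-sided exact permutation test, p = 0.1, n = 3 each). As a percentage of all exon-exon reads, most of which lay in the dense predicted genes and the mitochondrial chromosome, they came to 0.0526, 0.0464 and 0.0192% in WT and 0.0105, 0.0122 and 0.0124% in *Trpm7R/R*, again with no overlap (0.0394 ± 0.0177 and 0.0117 ± 0.00102%, SD, n = 3 each; 2-sided exact permutation test, p = 0.1). As a percentage of spliced reads, the same reads made up 0.189, 0.175 and 0.159% in WT and 0.124, 0.196 and 0.154% in *Trpm7R/R*, so that *Trpm7R/R* replicate 6 was the highest and *Trpm7R/R* replicate 4 the lowest of all. The group means on this scale were 0.174 ± 0.0146% and 0.158 ± 0.0359% (SD, n = 3 each). With the endocrine markers also taken out of the spliced reads, a denominator added after seeing the data like the one before it, the 10 genes held 0.391, 0.290 and 0.245% in WT and 0.157, 0.243 and 0.232% in *Trpm7R/R*. There the groups did not overlap, though WT replicate 3 and *Trpm7R/R* replicate 6 were almost level, and the means of 0.308 ± 0.0747% and 0.211 ± 0.0468% (SD, n = 3 each) differed 1.46-fold. The part that endocrine RNA and the yield of spliced RNA had in the difference per mapped read was not tested.

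**Figure D4:**
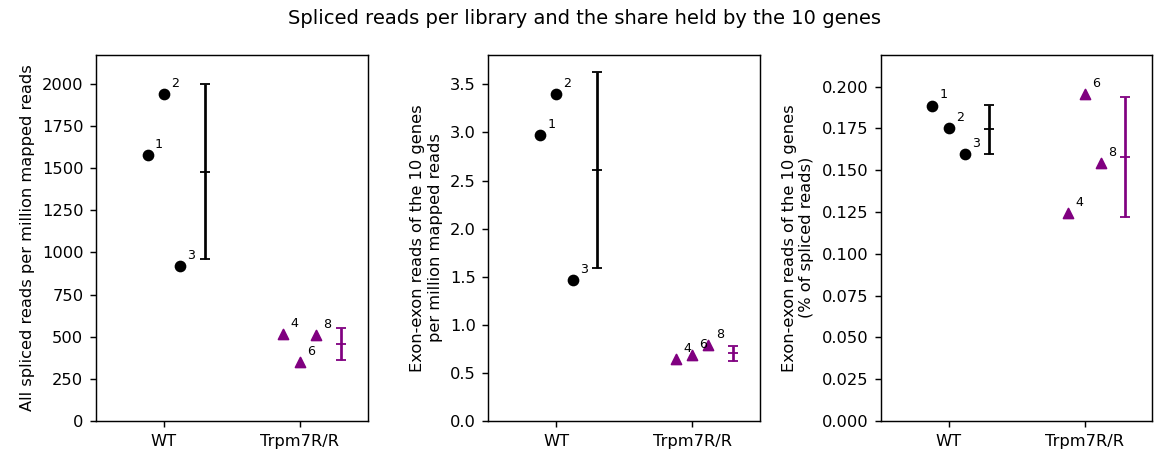
Spliced reads, in reads per 1000000 mapped (left), those of the 10 genes, also in reads per 1000000 mapped (middle), and the latter as a percentage of spliced reads (right), with 1 numbered point per library and bars for mean and SD. The groups are apart in the first 2 panels (2.61 against 0.703 in the middle one) and overlap in the third (0.174 against 0.158%).

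Genes around the relay were sparse as well, and their counts at an unadjusted p under 0.05 stand beside the 4.57% of all genes that were lower and the 1.14% that were higher at that level. Of 11 other detoxifying enzymes 3 could be tested and 0 passed an unadjusted p under 0.05 in edgeR's test, the lowest being *Prdx6*, a peroxiredoxin that uses glutathione (log2 fold change -0.76, SE 0.44). Among 17 reductases and partners, which return glutathione and thioredoxin to their reduced forms, 6 were tested and 0 passed, and *Txnrd1*, the gene of cytosolic thioredoxin reductase, was at -0.17 (SE 0.43). Of 28 genes of glutathione synthesis and transfer 8 were tested, and an unadjusted p under 0.05 was reached, downward, by 2: *Gclm*, the regulatory subunit of the enzyme that limits glutathione synthesis, at -1.69 (SE 0.42, edgeR adjusted p = 0.147), and *Gstp1*, a glutathione transferase, at -2.67 (SE 0.70, edgeR adjusted p = 0.177). Their exon-exon reads over all libraries were 13 in WT and 1 in *Trpm7R/R* for *Gclm*, and 24 and 3 for *Gstp1*. These are raw totals, not scaled to spliced reads, which were themselves fewer in *Trpm7R/R*. Of 12 genes of the NRF2 axis, 7 were tested and 3 were lower at that level: *Ftl1* at -3.23 (edgeR adjusted p = 0.0516) and *Fth1* at -1.33 (adjusted p = 0.332), the subunits of the iron store ferritin, and *Mafg*, a partner of NRF2, at -1.98 (adjusted p = 0.250). *Ftl1* and *Gstp1* belong to families with near-identical copies, so their reads are uncertain.

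Of 18 genes for making selenoproteins and of selenoproteins, on which glutathione peroxidases depend or to which they are related, 11 were tested and 1 was lower by the unadjusted p, *Selenos* (log2 fold change -0.93, SE 0.39), a selenoprotein of the endoplasmic reticulum. Among 28 sources of superoxide and peroxide 14 were tested and 1 was lower, *Ero1b*, the oxidase of the endoplasmic reticulum that passes electrons to oxygen during disulfide formation (-1.58, SE 0.39, edgeR adjusted p = 0.146). Of these 14 genes 10 had a positive log2 fold change and 4 a negative one, with a median of 0.30, where 5916 of all 11674 genes were positive. Of 19 peroxisome biogenesis genes 6 were tested and 0 passed. None of these lists had a member called in the fit of filtered genes, beside 0.0257% of all genes called lower. Of the endocrine markers 14 were tested, and 12 were lower by the unadjusted p and 2 were called (*Pyy* and *Ppy*). *Ins2*, with 35327, 28306 and 11717 exon reads in WT and 3774, 3648 and 9630 in *Trpm7R/R*, was at -2.13 (SE 0.47, edgeR adjusted p = 0.0985). Of the 68 genes on the acinar, endothelial, leukocyte, erythroid and stellate marker lists 24 were tested in exon reads, and 0 of these 24 passed an unadjusted p under 0.05 in edgeR's test. With all genes of at least 1 count in the fit, 1 of the 68 did, an acinar marker that was lower. In that fit 2 of the 28 glutathione genes, 1 of the 12 NRF2 axis genes and 11 of the 17 endocrine markers were called lower. The other lists around the relay had 0 called, and 0.411% of all 31854 genes were called lower.

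With *Sod1* as the one member measured well enough in exon-exon reads, the 4 genes whose exon-exon profile was most like it over the 6 libraries, among 71 candidates, were *Rpl37a* (Pearson r = 0.91), *Pfdn5* (0.89), *Rps29* (0.88) and *Ppy* (0.86). These values are a description over 6 libraries that share their depth and scaling, and include genes of the ribosome, of a protein-folding complex and of a hormone.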

How the data were processed

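Members and gene lists were chosen with earlier results of these data known. The authors mapped the reads to the mouse genome (build mm10 per the submitters' processing notes; neither the aligner nor the counter is given in the sources used here) and deposited, for each library, raw read counts per gene in exons, introns and across exon-exon junctions. They also deposited RPKM values (exon reads divided by exon length and by the mapped reads of the library), from which mapped reads were recovered, and TPM values, which were not used for any comparison. Since the deposited positions do not match GRCm38 annotation, positions are from GENCODE on GRCm38. The authors' own comparison (fold changes and p-values) was not used.

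Total exon reads were compared with edgeR 4.0.16 (quasi-likelihood, TMM, filterByExpr with a minimum of 10 counts, genotype as the only term) in R 4.3.3, with Benjamini-Hochberg adjustment over all genes tested, and exon-exon reads likewise with a minimum of 5 counts and 15 in total. Genes were called at 2-fold or more with an adjusted p up to 0.05. Single values per library were compared with 2-sided exact permutation tests. Of 228 listed symbols 227 were matched. Named were all 10 members, *Trpm7*, *Ins2*, the genes with the smallest p of each other list and the 5 genes most like *Sod1*, of which 1 is not reported here. On simulated data (11935 genes) this procedure found 63 of 73 exon changes of 4-fold and 7 of 74 of 2-fold. With exon-exon reads (329 genes) it found 18 of 27 and 4 of 26. The simulation gave all genes the same dispersion and changed genes in random directions. It held no difference in the yield of spliced reads between groups, so recovery in the real libraries can differ. Alternatives covered scaling, filters, uniquely mapped and total gene reads, DESeq2 1.42.0, edgeR's likelihood ratio test, limma-voom 3.58.1 and leaving out libraries. Further software was scipy 1.17.1, numpy 2.4.6, pandas 2.3.3, matplotlib 3.10.9 and Python 3.11.15. Intervals cover counting error only, since they come from reads summed over libraries and leave out the spread between mice. No molecular identifiers of reads were used.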

Additional observations from a re-analysis of the deposited data

How the results depend on the processing

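No paired analysis was possible because the groups share no replicate numbers. Of the 10 genes, 4 missed the filter in exon reads and 9 in exon-exon reads. *Sod1* kept its direction under all 18 alternatives of the exon fit and was called under 3 of them. These include the fit without *Trpm7R/R* replicate 4, in which genotype and sex cannot be told apart. *Gpx3* kept its direction under all 17 that could be fitted and was called under 4. *Prdx1*, *Prdx2* and *Gpx4* turned to 0.32, 0.60 and 0.53 with ribosomal protein gene scaling, which moved the median gene to 1.34, and kept their direction under the other 16. *Sod2*, at 0.03, changed sign with library size scaling (-0.027), total gene reads (-0.11), limma-voom (-0.038), without *Trpm7R/R* replicate 6 (-0.054), without replicate 8 (-0.097) and without both (-0.73), and it ranged from -0.097 to 0.29 leaving out 1 library. It was at 1.40, past the threshold, with ribosomal protein gene scaling.

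Members lower at an unadjusted p under 0.05 in exon reads, 3 in the chosen fit, were 0 with ribosomal protein gene scaling, 1 of 2 tested with a minimum of 30 counts, and 2 to 5 when a library was left out. The share of all genes lower at that level moved too, from 4.57% in the chosen fit to 0.111% with ribosomal protein gene scaling. It was 3.61% with a minimum of 30 counts and 2.47 to 8.85% when a library was left out. Genes called lower, 3 in that fit, were 30 with upper quartile scaling, 23 with library size scaling, 8 with ribosomal protein gene scaling, 131 with all genes of at least 1 count, 29 with a minimum of 30 counts, 0 with total gene reads, 97 with DESeq2's Wald test, 161 with the likelihood ratio test, 0 to 151 leaving out 1 library and 8 without *Trpm7R/R* replicates 6 and 8. Genes called higher, 0 there, were 7243 with ribosomal protein gene scaling, 10 with all genes of at least 1 count, 1 with the likelihood ratio test and 0 to 45 leaving out 1 library.

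In exon-exon reads 1 gene was called lower and 11 higher. Lower calls were 0 with DESeq2 size factors, 214 with mapped reads scaling, 0 with a minimum of 10 counts, 4 with all genes of at least 1 count and 0 to 3 leaving out 1 library. Higher calls were 1 with mapped reads scaling, 0 with a minimum of 10 counts, 0 with all genes of at least 1 count, 20 with DESeq2's Wald test, 17 without the dense predicted and mitochondrial genes (added after seeing the data) and 1 to 36 leaving out 1 library. Members lower at an unadjusted p under 0.05, 0 in that fit, were 1 with mapped reads scaling, 2 of 9 with all genes of at least 1 count and 0 to 1 leaving out 1 library. The share of all genes lower at that level was 4.9% in that fit and 66.6% with mapped reads scaling. It was 2.76% with all genes of at least 1 count and 2.94 to 6.97% leaving out 1 library. The *Trpm7R/R* to WT ratio of the members' share of all exon-exon reads, 0.297, was between 0.236 and 0.357 leaving out 1 library, and that of their exon-exon reads per mapped read, 0.269, between 0.220 and 0.317. For their share of spliced reads the ratio, 0.906, was between 0.798 and 1.00 leaving out 1 library, reaching 1.00 without *Trpm7R/R* replicate 4. Outside endocrine markers it was 0.683, and between 0.619 and 0.788 leaving out 1 library. The causes of these changes were not tested.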
